A study of Drosophila melanogaster with 13 samples.

Results

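The 33 genes described here lie on chromosome 4 of Drosophila melanogaster. They were listed by symbol from the genes of this chromosome with roles in signalling, the synapse and other cell functions, with transcription factors left out. They made up 33 of the 65 measured genes of chromosome 4 and of 11982 measured genes in all. The array measures a transcript with a probe set, a group of short probes. The annotation symbol matched 30 genes, and RefSeq synonyms matched Thd1 (now Tdg), CG11077 (now Mpv17) and CG32850 (now Rnf11). Each gene was represented by its brightest probe set, and none had a mean signal below the 40th percentile of all probe sets. The list is wider than signalling and synapse: it also holds genes of translation, the sarcomere, lipid transport and DNA repair, and 9 genes known by CG numbers.

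RNA came from heads of adult flies raised at 25 °C and 70% humidity. All 4 genotypes carried yw and the second-chromosome balancer CyO. The control was yw; +/CyO. The egg mutant carried the allele egg235 over CyO, and so had 1 balanced mutant chromosome. The Su(var)3-9 mutant was +/CyO with the allele Su(var)3-906, and the double mutant was egg235/CyO with Su(var)3-906. The labels do not give the flies' sex or age, or whether Su(var)3-906 was on 1 or both homologues. Each genotype was measured on 3 arrays, which are described as biological replicates. Nothing says more about how the replicates were raised, so p-values measure the spread between these samples.

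Chromosome 4 is the small dot chromosome of the fly, on which active genes sit within heterochromatin. The egg gene encodes the fly SETDB1 enzyme and Su(var)3-9 the fly SUV39H enzyme. Both add methyl groups to lysine 9 of histone H3, the mark that HP1 binds, and egg is known as the enzyme that places this mark on chromosome 4. The comparisons ask how head transcripts of genes in this setting differ when either enzyme gene, or both, are mutated. Many of the listed genes act in neurons, where Eph and Ephrin guide axons as receptor and ligand, and unc-13, Cadps and Syt7 take part in vesicle release.

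Values are log2 expression, and a value after ± is the standard error of a log2 change with 3 arrays per group unless SD is written. A gene is said to rise or fall where its limma adjusted p was under 0.05. Transcripts of organs outside the head set the control arrays apart from those of the mutants. The median of 21 testis markers was 8.19 to 9.08 on the control arrays, 5.77 to 6.06 on egg arrays, 4.49 to 4.96 on Su(var)3-9 arrays and 5.05 to 5.40 on double mutant arrays. A score that averages the medians of the testis, gut and muscle markers lay at 10.4 to 10.9 on control arrays, 8.23 to 8.44 on egg arrays, 6.92 to 7.86 on Su(var)3-9 arrays and 7.25 to 7.78 on double mutant arrays. For 14 neuronal markers the median ran the other way, at 9.59 to 9.93 on control arrays, 10.64 to 10.68 on egg arrays, 10.33 to 10.42 on Su(var)3-9 arrays and 10.34 to 10.40 on double mutant arrays. The 11 photoreceptor markers, which check the labelled head tissue, had medians of 12.33 to 12.76 on control arrays, 13.13 to 13.22 on egg, 12.60 to 12.72 on Su(var)3-9 and 12.88 to 12.89 on double mutant arrays. For 8 glial markers these were 8.98 to 9.28, 9.62 to 9.71, 9.27 to 9.33 and 9.31 to 9.35. The 15 ovary markers had a median of 6.93 on egg replicate 1 alone. It was 4.41 and 4.84 on egg replicates 2 and 3, and 5.19 or lower on every array of the other groups. The part of these differences in the results against the control was not tested, and in whole heads a change in the share of a cell type and a change in RNA per cell cannot be told apart.

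Most of the listed genes were higher in each mutant than in the control. The list was chosen with earlier results of these data known, so its counts are a description. In the egg mutant 27 of 33 rose and 4 fell, where 36.4% of all measured genes rose and 26% fell. In the Su(var)3-9 mutant 25 rose and 4 fell, against 43.3% and 23.8% of all genes. In the double mutant 28 rose and 4 fell, against 42.2% and 23.8%. The median log2 change of the list was 0.52, 0.42 and 0.50 in the 3 mutants, and that of all genes was 0.09, 0.18 and 0.17. The 3 comparisons share their control arrays, so they are not independent of each other. For 22 genes every mutant array lay above every control array, which held for 29.4% of all genes, and for 3 genes (bt, CG1674 and CG32006) every mutant array lay below, which held for 20.7%. Under cyclic loess normalisation the rises dropped to 16, 16 and 14, the list medians were 0.21, 0.20 and 0.19, and the medians of all genes turned to -0.09, -0.07 and -0.07. With arrays centred on their medians 29 genes rose in each mutant and 2, 2 and 1 fell, while the medians of all genes moved to 0.32, 0.55 and 0.52. Once the other-tissue score entered the fit as a covariate, 2, 0 and 0 genes rose, while the list medians were 0.64, 0.61 and 0.58. That score separates control from mutant arrays, so this fit cannot tell score and genotype apart. Standard errors also grew. For CG32850 in the egg mutant the change was -0.61 ± 0.28 with the covariate and -0.65 ± 0.08 without it. The share of all genes under this fit is not given here.

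**Figure D1:**
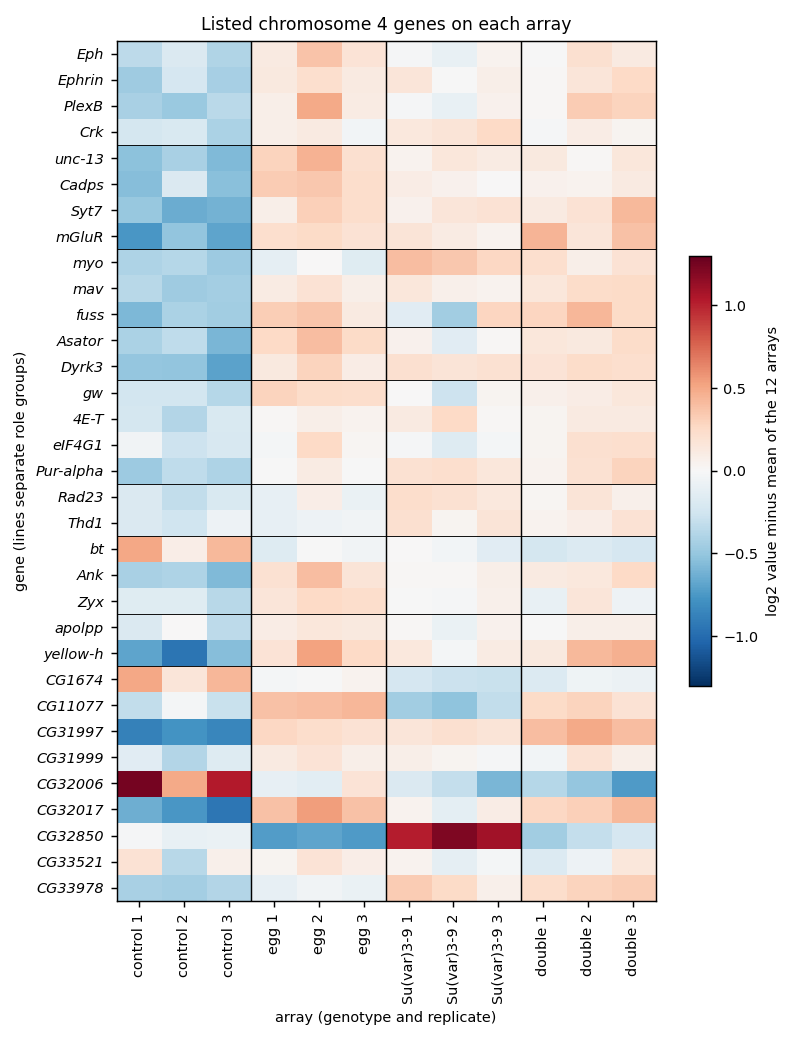
Each row is a listed gene and each column an array, and the colour is the log2 value minus the gene's mean over the 12 arrays, from blue (lower) to red (higher). The 3 control columns are the lowest for most rows, bt, CG1674 and CG32006 are highest there, and CG32850 is high in the Su(var)3-9 columns.

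Against the control, 23 genes rose in all 3 mutants and 3 fell in all 3. The share of all genes with these patterns was not computed, so the counts are given as a description. The genes gw, eIF4G1 and apolpp rose in the egg and double mutants, and Thd1 rose in the Su(var)3-9 and double mutants. CG11077 rose in the egg and double mutants and fell in the Su(var)3-9 mutant. CG32850 did the reverse. CG33521 passed in no mutant, with log2 changes of 0.14 ± 0.13, 0.01 ± 0.13 and 0.00 ± 0.13 in the egg, Su(var)3-9 and double mutant. Its sign depended on the scaling, with -0.20, -0.29 and -0.31 under cyclic loess, which did not pass, and rises of 0.36, 0.38 and 0.36 with median centring.

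**Figure D2:**
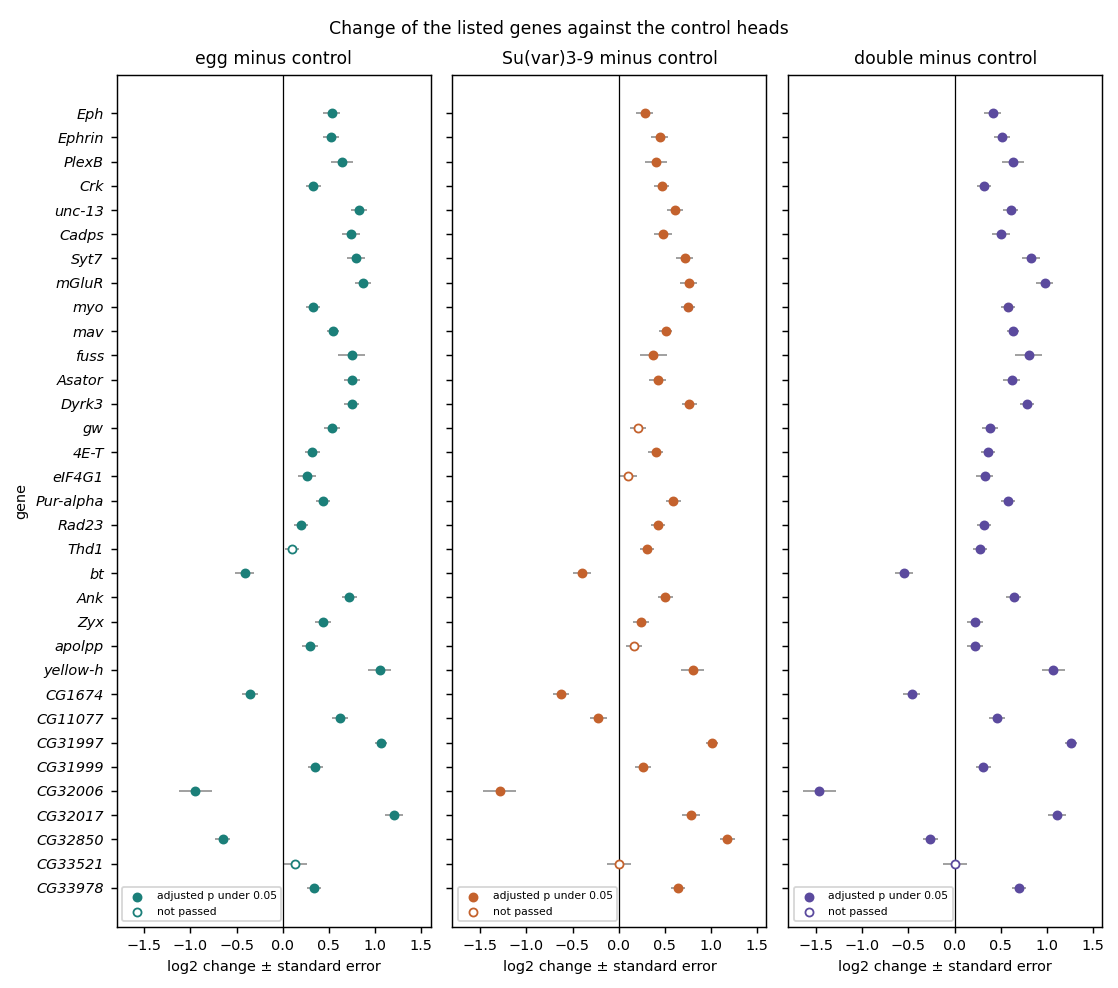
Points give the log2 change of each listed gene against the control in the egg, Su(var)3-9 and double mutant, with bars of 1 standard error. Filled points passed an adjusted p of 0.05. Most points lie between 0.2 and 1, CG32006 lies lowest, and CG32850 and CG11077 change sides of 0 in the middle panel.

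The 4 guidance genes rose in every mutant as deposited, and most of these calls depended on the scaling. Eph, a receptor tyrosine kinase of axon guidance, and its ligand Ephrin rose by 0.53 ± 0.09 and 0.52 ± 0.09 in the egg mutant, by 0.28 ± 0.09 and 0.44 ± 0.09 in the Su(var)3-9 mutant, and by 0.41 ± 0.09 and 0.51 ± 0.09 in the double mutant. PlexB, a receptor for semaphorins, rose by 0.64 ± 0.12, 0.40 ± 0.12 and 0.63 ± 0.12. Crk, an adaptor that couples such receptors to the cytoskeleton, had values of 10.48, 10.51 and 10.29 on control arrays, 10.78, 10.82 and 10.67 on egg arrays, 10.85, 10.87 and 10.96 on Su(var)3-9 arrays and 10.69, 10.81 and 10.74 on double mutant arrays. No mutant array of Crk overlapped the control, and its rises were 0.33 ± 0.08, 0.47 ± 0.08 and 0.32 ± 0.08. The rise of Eph in the Su(var)3-9 mutant was lost without control replicate 1, control replicate 3 or Su(var)3-9 replicate 3 (limma adjusted p = 0.0506 to 0.0593). Under cyclic loess Eph (0.21, 0.01 and 0.11), Ephrin (0.18, 0.14 and 0.19) and PlexB (0.31, 0.11 and 0.31) passed in no mutant, and Crk passed in the Su(var)3-9 mutant (0.27) and not in the egg (0.09) or double mutant (0.08).

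The 4 genes of synaptic release and glutamate signalling rose in every mutant. Their median log2 changes were 0.81 (egg), 0.66 (Su(var)3-9) and 0.72 (double). The vesicle priming gene unc-13 measured 10.60, 10.72 and 10.56 on control arrays, 11.42, 11.59 and 11.34 on egg arrays, 11.19, 11.28 and 11.24 on Su(var)3-9 arrays and 11.27, 11.15 and 11.29 on double mutant arrays. The egg arrays were the highest and the control arrays the lowest, with no overlap of either with another group. The rise of unc-13 was 0.82 ± 0.08 in the egg mutant (limma adjusted p = 3.77e-06) and 0.61 ± 0.08 in each of the other mutants. Cadps, which acts in dense-core vesicle release, rose by 0.74 ± 0.10, 0.48 ± 0.10 and 0.50 ± 0.10. Syt7, a synaptotagmin that senses calcium, rose by 0.79 ± 0.09, 0.72 ± 0.09 and 0.83 ± 0.09. For mGluR, the receptor gene of slow glutamate signalling, the rise was 0.87 ± 0.09, 0.76 ± 0.09 and 0.98 ± 0.09, which is 1.97-fold in the double mutant. Under cyclic loess these genes kept their calls, except Cadps in the double mutant (0.21). The medians of the neuronal markers were lowest in the control, as were these 4 genes. They were highest in the egg mutant, as were unc-13 and Cadps, while Syt7 and mGluR were highest in the double mutant. The part of the neuronal markers in these rises was not tested.

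The TGF-beta family ligands differed in their order across the mutants. For myo (myoglianin), a ligand of the activin branch, the control arrays read 6.43, 6.46 and 6.35, the egg arrays 6.71, 6.83 and 6.67, the Su(var)3-9 arrays 7.23, 7.18 and 7.09 and the double mutant arrays 7.04, 6.90 and 7.01. None of the 4 groups overlapped, and the order ran from control through egg and double to the Su(var)3-9 mutant. Its rises were 0.32 ± 0.08, 0.75 ± 0.08 and 0.57 ± 0.08 in the egg, Su(var)3-9 and double mutants. The rise in the egg mutant did not pass under cyclic loess (0.01) or with centring on brighter probe sets (0.11). For mav (maverick), another ligand, the values were 8.45, 8.35 and 8.37 on control arrays, 8.92, 9.00 and 8.88 on egg arrays, 8.96, 8.88 and 8.86 on Su(var)3-9 arrays and 8.96, 9.05 and 9.06 on double mutant arrays. The mutants overlapped each other and none overlapped the control, and mav rose by 0.54 ± 0.07, 0.51 ± 0.07 and 0.63 ± 0.07. The Ski family gene fuss rose by 0.74 ± 0.15 in the egg and 0.80 ± 0.15 in the double mutant. In the Su(var)3-9 mutant fuss read 5.57, 5.27 and 6.001, overlapping the control, and its rise of 0.38 ± 0.15 was lost without any 1 of 9 arrays (limma adjusted p = 0.0515 to 0.187). Without Su(var)3-9 replicate 3 it was 0.18, and under cyclic loess it was 0.07 and did not pass.

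Both kinase genes rose in all mutants. Asator, of the tau-tubulin kinase family, read 9.96, 10.04 and 9.78 on control arrays, 10.63, 10.77 and 10.62 on egg arrays, 10.43, 10.23 and 10.39 on Su(var)3-9 arrays and 10.52, 10.50 and 10.61 on double mutant arrays. The egg arrays were above those of every other group, and the rises were 0.75 ± 0.09, 0.42 ± 0.09 and 0.62 ± 0.09. Dyrk3, a dual-specificity kinase, differed little between mutants, with rises of 0.75 ± 0.08, 0.77 ± 0.08 and 0.78 ± 0.08.

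Genes of RNA silencing and translation showed smaller changes. The GW182 gene gw, needed for microRNA silencing, read 11.07, 11.07 and 10.94 on control arrays, 11.60, 11.55 and 11.54 on egg arrays, 11.32, 11.04 and 11.35 on Su(var)3-9 arrays and 11.38, 11.40 and 11.45 on double mutant arrays. The Su(var)3-9 arrays alone overlapped the control. It rose by 0.53 ± 0.09 in the egg and 0.38 ± 0.09 in the double mutant, and its change of 0.21 ± 0.09 in the Su(var)3-9 mutant did not pass (limma adjusted p = 0.0504). Without Su(var)3-9 replicate 2 that change was 0.31 and passed (limma adjusted p = 0.00471). The translational repressor gene 4E-T rose by 0.32 ± 0.08, 0.40 ± 0.08 and 0.36 ± 0.08, and the nucleic acid binding gene Pur-alpha by 0.44 ± 0.08, 0.59 ± 0.08 and 0.58 ± 0.08. The initiation factor gene eIF4G1 rose by 0.26 ± 0.10 in the egg and 0.32 ± 0.10 in the double mutant, and its change in the Su(var)3-9 mutant was 0.10 ± 0.10. Its call in the egg mutant was lost without control replicate 2 or 3 or egg replicate 2 or 3 (limma adjusted p = 0.0521 to 0.17). Under cyclic loess 4E-T (-0.01, 0.12 and 0.05) and eIF4G1 (0.01, -0.11 and 0.08) passed in no mutant, and gw did not pass in the double mutant (0.18). The change of eIF4G1 in the Su(var)3-9 mutant was also negative with centring on brighter probe sets (-0.08).

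Rad23, which binds ubiquitin and acts in nucleotide excision repair, read 10.06, 9.93 and 10.05 on control arrays, 10.14, 10.33 and 10.16 on egg arrays, 10.48, 10.44 and 10.38 on Su(var)3-9 arrays and 10.27, 10.42 and 10.31 on double mutant arrays. The control arrays were the lowest, and the egg arrays lay below the Su(var)3-9 arrays. Its rises were 0.20 ± 0.08, 0.42 ± 0.08 and 0.32 ± 0.08. The call of Rad23 in the egg mutant was lost without any 1 of 10 arrays (limma adjusted p = 0.0536 to 0.189), and under cyclic loess the changes were -0.07, 0.20 and 0.06, none of which passed. Centring on brighter probe sets also gave a negative change in the egg mutant (-0.01). The thymine DNA glycosylase gene Thd1 changed by 0.10 ± 0.08 in the egg mutant, which did not pass, and rose by 0.31 ± 0.08 and 0.28 ± 0.08 in the Su(var)3-9 and double mutants. The sign of Thd1 depended on the scaling. In the egg mutant it fell by 0.22 under cyclic loess, rose by 0.33 with median centring and was -0.11 with centring on brighter probe sets, while in the Su(var)3-9 and double mutants cyclic loess gave 0.04 and -0.03, which did not pass.

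The cytoskeletal genes moved in opposite directions. The sarcomere gene bt (bent), which encodes the giant muscle protein projectin, read 12.0003, 11.59 and 11.92 on control arrays, 11.33, 11.50 and 11.45 on egg arrays, 11.51, 11.47 and 11.35 on Su(var)3-9 arrays and 11.26, 11.32 and 11.28 on double mutant arrays. All mutant arrays were below the control. It fell by 0.41 ± 0.10, 0.40 ± 0.10 and 0.55 ± 0.10, and with arrays centred on their medians none of these passed (limma adjusted p = 0.119, 0.819 and 0.0907). The median of 16 muscle markers, which do not include bt, was 12.1 to 12.6 in the control and 10.99 to 11.70 over the mutant arrays. Single markers did not move alike. Act88F was 13.89 to 14.27 in the control and 8.42 to 11.70 over the mutant arrays. For sls these ranges overlapped (9.30 to 9.57 and 9.26 to 9.45), and Mf was higher in the mutants (13.22 to 13.37 and 13.40 to 13.61). The part of the muscle markers in the fall of bt was not tested. The membrane-cytoskeleton linker gene Ank rose by 0.72 ± 0.08, 0.50 ± 0.08 and 0.64 ± 0.08. The focal adhesion gene Zyx rose by 0.44 ± 0.09, 0.24 ± 0.09 and 0.22 ± 0.09. Its call in the Su(var)3-9 mutant was lost without any 1 of 3 arrays (control replicate 3, Su(var)3-9 replicates 1 and 3), with a limma adjusted p of 0.0519 to 0.103. In the double mutant it was lost without control replicate 3, Su(var)3-9 replicate 1, double mutant replicate 2 or egg replicate 3 (limma adjusted p = 0.0504 to 0.159). Under cyclic loess Zyx passed in no mutant (0.16, 0.00 and -0.05).

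The lipid carrier gene apolpp read 13.61, 13.81 and 13.46 on control arrays, 13.90, 13.95 and 13.93 on egg arrays, 13.82, 13.71 and 13.86 on Su(var)3-9 arrays and 13.80, 13.88 and 13.88 on double mutant arrays. Control replicate 2 lay within the range of the Su(var)3-9 and double arrays. It rose by 0.30 ± 0.09 in the egg and 0.23 ± 0.09 in the double mutant. The first call was lost without control replicate 3 (limma adjusted p = 0.0501) and the second without any 1 of 9 arrays (limma adjusted p = 0.0525 to 0.163). Its change in the Su(var)3-9 mutant, 0.17 ± 0.09, passed without control replicate 2 alone, at 0.26 (limma adjusted p = 0.0126). With centring on brighter probe sets the changes of apolpp were 0.09, -0.01 and 0.03, and none passed. The median of 10 fat body markers, a tissue that makes apolpp, was 10.43 to 10.67 on control arrays, 10.64 to 10.74 on egg arrays, 11.00 to 11.20 on Su(var)3-9 arrays and 10.97 to 11.14 on double mutant arrays. The yellow family gene yellow-h read 7.37, 7.10 and 7.49 on control arrays, 8.23, 8.57 and 8.30 on egg arrays, 8.18, 8.02 and 8.16 on Su(var)3-9 arrays and 8.18, 8.47 and 8.51 on double mutant arrays. No control array reached any mutant array, and yellow-h rose by 1.05 ± 0.13, 0.80 ± 0.13 and 1.07 ± 0.13.

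The largest changes were those of genes known by CG numbers, and both directions occurred. CG31997 read 10.57, 10.67 and 10.60 on control arrays, 11.71, 11.68 and 11.63 on egg arrays, 11.60, 11.66 and 11.62 on Su(var)3-9 arrays and 11.85, 11.93 and 11.84 on double mutant arrays. The double mutant was above both single mutants, which overlapped. It rose by 1.06 ± 0.06, 1.01 ± 0.06 and 1.26 ± 0.06, the last being 2.40-fold (limma adjusted p = 1.43e-08). CG32017 read 10.34, 10.21 and 10.03 on control arrays, 11.35, 11.51 and 11.34 on egg arrays, 11.02, 10.84 and 11.07 on Su(var)3-9 arrays and 11.24, 11.27 and 11.39 on double mutant arrays. Its rises of 1.21 ± 0.10, 0.78 ± 0.10 and 1.11 ± 0.10 were lowest in the Su(var)3-9 mutant, whose arrays lay below those of the other mutants. CG33978 read 8.37, 8.35 and 8.41 on control arrays, 8.69, 8.75 and 8.71 on egg arrays, 9.13, 9.05 and 8.87 on Su(var)3-9 arrays and 9.03, 9.09 and 9.11 on double mutant arrays. The egg arrays lay between those of the control and those of the other mutants, which overlapped, and it rose by 0.34 ± 0.08, 0.64 ± 0.08 and 0.70 ± 0.08. The rise in the egg mutant did not pass under cyclic loess (0.01) or with centring on brighter probe sets (0.13). CG31999 rose by 0.35 ± 0.08, 0.26 ± 0.08 and 0.31 ± 0.08, a call lost in the Su(var)3-9 mutant without control replicate 2 or Su(var)3-9 replicate 1 (limma adjusted p = 0.0643 and 0.0566). Under cyclic loess CG31999 passed in no mutant (0.03, -0.01 and 0.01).

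CG32006 and CG1674 fell in every mutant as deposited. CG32006 read 6.48, 5.72 and 6.26 on control arrays, 5.12, 5.09 and 5.40 on egg arrays, 5.04, 4.91 and 4.63 on Su(var)3-9 arrays and 4.85, 4.73 and 4.49 on double mutant arrays. All mutant arrays were below the control, whose arrays were the most spread of any listed gene (SD 0.39, n = 3). Its log2 changes were -0.95 ± 0.18, -1.29 ± 0.18 and -1.47 ± 0.18, the last a 2.76-fold lower value (limma adjusted p = 1.84e-05). CG1674 read 9.84, 9.49 and 9.77 on control arrays, 9.31, 9.34 and 9.38 on egg arrays, 9.12, 9.06 and 9.04 on Su(var)3-9 arrays and 9.16, 9.28 and 9.26 on double mutant arrays. The Su(var)3-9 arrays were the lowest, and the changes were -0.36 ± 0.09, -0.63 ± 0.09 and -0.47 ± 0.09. With arrays centred on their medians the fall of CG1674 did not pass in the egg mutant (-0.13) or the double mutant (-0.11, limma adjusted p = 0.235). The medians of the testis and muscle markers moved the same way as both genes, though not every single marker did. The part of these markers in the falls was not tested.

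CG32850, the fly RNF11 gene for a RING finger protein, moved in opposite directions in the single mutants. Its values were 10.53, 10.45 and 10.47 on control arrays, 9.82, 9.86 and 9.81 on egg arrays, 11.56, 11.77 and 11.64 on Su(var)3-9 arrays and 10.09, 10.24 and 10.33 on double mutant arrays. The 4 groups did not overlap, and their order was egg, double, control, Su(var)3-9. It fell by 0.65 ± 0.08 in the egg mutant (limma adjusted p = 2.08e-05), rose by 1.17 ± 0.08 in the Su(var)3-9 mutant (limma adjusted p = 9.28e-08) and fell by 0.26 ± 0.08 in the double mutant. The last call was lost without double mutant replicate 1 (-0.20, limma adjusted p = 0.0658), and with arrays centred on their medians the sign turned (0.09) and the change did not pass. Its second probe set changed by -0.72 ± 0.09, 1.04 ± 0.09 and -0.40 ± 0.09 and passed in all 3 comparisons. Both probe sets are of a kind that can match more than 1 transcript.

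CG11077, the fly homolog of the mitochondrial membrane protein gene MPV17, was highest in the mutants that carry egg235. It read 8.41, 8.70 and 8.44 on control arrays, 9.10, 9.13 and 9.16 on egg arrays, 8.28, 8.20 and 8.41 on Su(var)3-9 arrays and 8.97, 9.02 and 8.92 on double mutant arrays. The control and Su(var)3-9 arrays did not overlap but came within 0.01 of each other, and both lay below the arrays of the other groups. Its rises were 0.62 ± 0.09 in the egg and 0.45 ± 0.09 in the double mutant. Its fall of 0.22 ± 0.09 in the Su(var)3-9 mutant was lost without any 1 of 9 arrays (limma adjusted p = 0.0515 to 0.168), and the sign turned with arrays centred on their medians (0.15). The rise in the double mutant did not pass under cyclic loess (0.14).

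Comparisons between mutants use no control value in the change, though the control arrays enter the shared estimate of the spread. Fewer listed genes passed in them than against the control, which held for all genes too. Between the double and egg mutants 3 rose and none fell, where 9.61% and 10.1% of all genes did. These were CG32850 (0.39 ± 0.08), CG33978 (0.36 ± 0.08) and myo (0.25 ± 0.08). The call of myo was lost without double mutant replicate 1 or 3 or egg replicate 1 or 3 (limma adjusted p = 0.12 to 0.155). For the other 30 genes 6 had an unadjusted p under 0.05, and the 95% intervals of 29 lay within 0.5 of 0. Without control replicate 2 the number of genes that passed was 6, with Cadps, CG31997 and CG32006 added, since the groups share 1 estimate of the spread.

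Between the double and Su(var)3-9 mutants 2 genes rose and 1 fell, where 3.09% and 2.9% of all genes did. The other-tissue scores of these mutants overlapped. CG32850 fell by 1.44 ± 0.08, which is 2.71-fold (limma adjusted p = 3.02e-07), and its second probe set fell by 1.44 ± 0.09. CG11077 rose by 0.67 ± 0.09 (limma adjusted p = 0.000505). CG31997 rose by 0.25 ± 0.06, a call lost without any 1 of 10 arrays (limma adjusted p = 0.0543 to 0.159). Of the other 30 genes 6 had an unadjusted p under 0.05, and 26 had a 95% interval within 0.5 of 0. The change of fuss was 0.42 ± 0.15, and it passed without Su(var)3-9 replicate 3, at 0.62 (limma adjusted p = 0.0107).

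Between the egg and Su(var)3-9 mutants 5 genes were higher in the egg mutant and 4 lower, where 17.3% and 14.4% of all genes were. The higher genes were CG11077 (0.83 ± 0.09), CG32017 (0.42 ± 0.10), Asator (0.33 ± 0.09), gw (0.33 ± 0.09) and CG1674 (0.27 ± 0.09). The lower genes were CG32850 (-1.82 ± 0.08, limma adjusted p = 1.95e-08), myo (-0.43 ± 0.08), CG33978 (-0.30 ± 0.08) and Rad23 (-0.22 ± 0.08). The 3.54-fold difference of CG32850 was the largest of any listed gene in any comparison. The calls of CG11077 and CG32850 in this comparison and in that of the double with the Su(var)3-9 mutant passed under all 24 alternatives run. Single arrays decided the calls of Asator (2 arrays, limma adjusted p = 0.0647 and 0.0674 without them), gw (2 arrays, 0.0514 and 0.0516), CG33978 (Su(var)3-9 replicate 1, 0.0503), Rad23 (9 arrays, 0.052 to 0.155) and CG1674 (7 arrays, 0.0516 to 0.112). For Asator these were Su(var)3-9 replicate 2 and egg replicate 2, and for gw Su(var)3-9 replicate 2 and egg replicate 1.

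**Figure D3:**
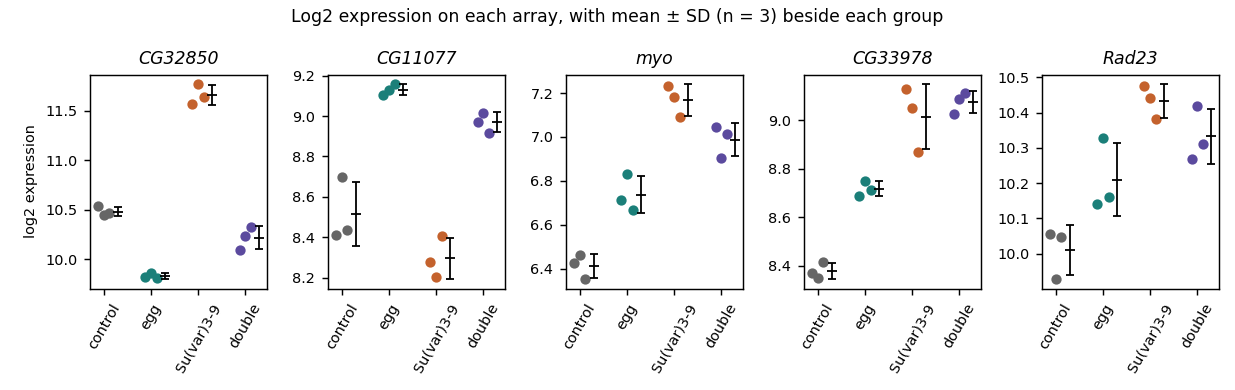
Points are log2 values of 5 genes on each of the 12 arrays, with a bar for the mean ± SD of 3 arrays beside each group, and each panel has its own axis, which does not start at 0. CG32850 is highest in the Su(var)3-9 mutant and lowest in the egg mutant, CG11077 is high in both groups with egg235, and myo, CG33978 and Rad23 have egg arrays below the Su(var)3-9 arrays.

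The interaction asks whether the effect of egg235 is the same with and without Su(var)3-906, as double minus Su(var)3-9 less egg minus control. It was negative and passed for 21 listed genes and positive for 2, against 27.7% and 21.6% of all genes. The list median was -0.42 and that of all genes -0.11. For unc-13 the effect of egg235 was 0.82 ± 0.08 without and -0.00 ± 0.08 with the Su(var)3-9 mutation, an interaction of -0.83 ± 0.12 (limma adjusted p = 0.000128). For CG32850 both effects were negative, -0.65 ± 0.08 and -1.44 ± 0.08, an interaction of -0.79 ± 0.11. For CG11077 the effects were 0.62 ± 0.09 and 0.67 ± 0.09, and the interaction of 0.06 ± 0.12 did not pass (limma adjusted p = 0.749). The sign and call of this interaction depended on the scaling. It was -0.19 with median centring and 0.25 with centring on brighter probe sets, which did not pass. Under cyclic loess it was 0.36 and passed. The other-tissue score differed by -2.39 between the egg mutant and the control and by 0.18 between the double and Su(var)3-9 mutants, so it moves with the interaction, and its part was not tested. Under cyclic loess 10 genes were negative and 3 positive. With the score as covariate none of the 33 passed, in a fit that cannot tell score and genotype apart.

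The remaining genes of chromosome 4 were mostly higher in the mutants too. Of the 10 measured chromosome 4 transcription factors left out of the list, 10, 9 and 10 rose in the egg, Su(var)3-9 and double mutant and none fell, with median changes of 0.68, 0.59 and 0.71. Under cyclic loess 6, 6 and 7 of these factors rose. Of the other 22 genes of the chromosome 18, 16 and 20 rose and 1, 3 and 2 fell, with medians of 0.63, 0.34 and 0.47. CG32850 follows Zip102B, a zinc transporter gene, in the order of measured genes, and these neighbours were looked up after their values were seen. Zip102B changed by -0.50 in the Su(var)3-9 mutant and by 0.97 between the double and Su(var)3-9 mutants, opposite in both to CG32850. The next gene, the calcium pump gene PMCA, changed by 0.25 and 0.03. CG11077 lies between toy and CG11076, which changed by 0.56 and 0.25 in the Su(var)3-9 mutant and by 0.06 and -0.01 between the double and Su(var)3-9 mutants. Its directions were not its own on this chromosome. CG11155, also picked after its values were seen, rose by 0.38 in the egg and 0.44 in the double mutant. It fell by 0.82 in the Su(var)3-9 mutant and was 1.26 higher in the double than in the Su(var)3-9 mutant.

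**Figure D4:**
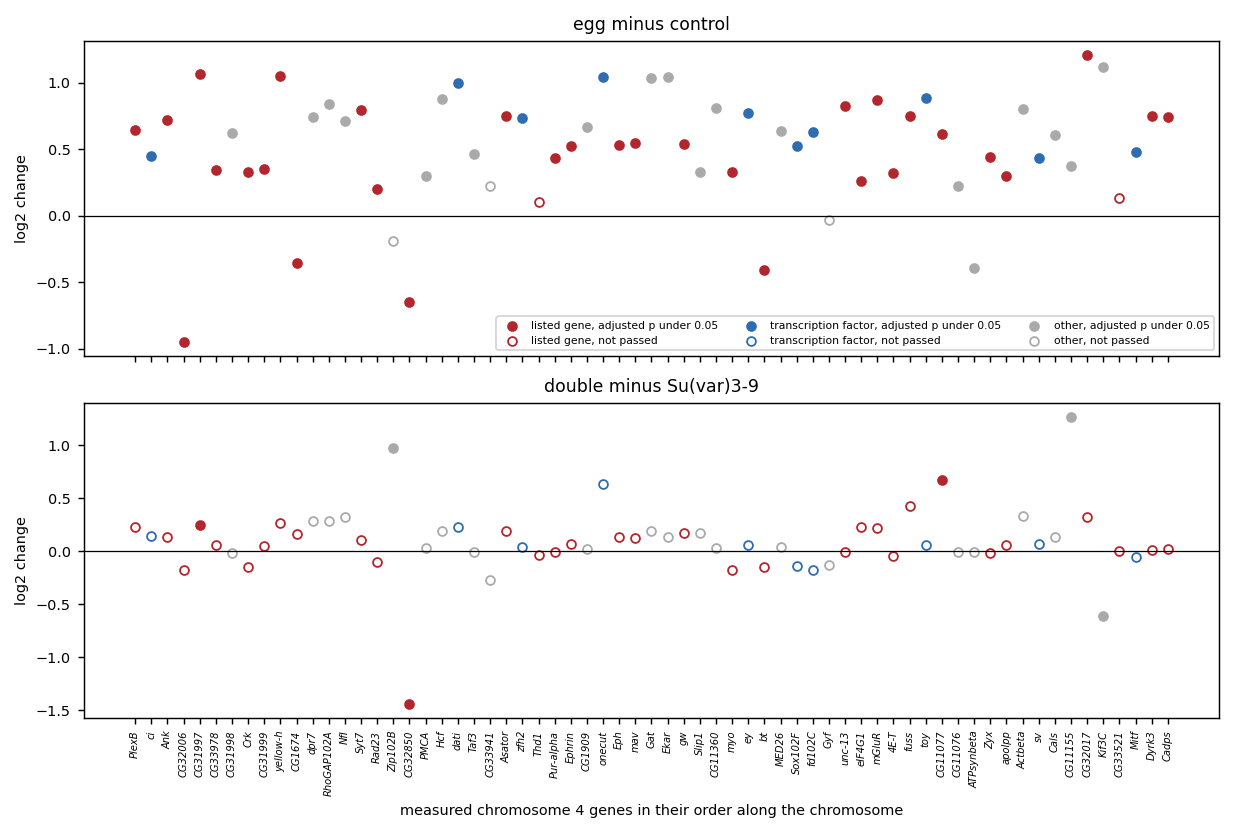
Points are the measured chromosome 4 genes in their order along the chromosome (evenly spaced, not to distance), and the vertical axis is the log2 change in the egg mutant against the control (top) and in the double against the Su(var)3-9 mutant (bottom). Listed genes are red, transcription factors blue and other genes grey, and filled points passed an adjusted p of 0.05. Points above 0 fill the whole length in the top panel, while CG32850 and CG11077 stand out among listed genes in the bottom panel.

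The pathways that the listed genes belong to were followed in further genes, beside the shares of all genes given above for each mutant. These lists too were chosen with earlier results of these data known, and their counts are a description. All 13 measured axon guidance genes of 20 listed and all 16 vesicle release genes of 20 rose in every mutant. Among them the semaphorin Sema1a rose by 1.38 ± 0.11, 1.34 ± 0.11 and 1.29 ± 0.11, the receptor phosphatase Lar by 0.80 ± 0.08, 0.69 ± 0.08 and 0.69 ± 0.08, and the active zone gene Rbp by 1.31 ± 0.15, 0.92 ± 0.15 and 1.09 ± 0.15. The membrane fusion gene Snap25 rose by 0.84 ± 0.08, 0.63 ± 0.08 and 0.78 ± 0.08. Of 13 measured glutamate receptor and transporter genes 9, 10 and 9 rose and none fell, with Nmdar1, an NMDA receptor subunit, at 1.11 ± 0.14, 1.13 ± 0.14 and 1.33 ± 0.14. Their median changes were 0.54, 0.46 and 0.50, and those of the vesicle release list were 0.78, 0.53 and 0.65. None of these genes lies on chromosome 4, and Snap25, Rab3 and cac of the vesicle release list are also among the neuronal markers. Under cyclic loess 10, 11 and 11 axon guidance genes, 15, 11 and 11 vesicle release genes and 6, 7 and 6 glutamate genes rose, and 1 glutamate gene fell in each mutant. With the other-tissue score as covariate 0 genes of these 3 lists rose in any mutant. The axon guidance medians were then 0.51, 0.67 and 0.54, beside 0.70, 0.74 and 0.69 without it. Those of vesicle release were 0.45, 0.03 and 0.18, and those of the glutamate list 0.26, 0.15 and 0.14. The score separates control from mutant arrays, so this fit cannot tell score and genotype apart.

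Of 17 measured TGF-beta genes 13, 15 and 15 rose and none fell. Actbeta, the activin ligand gene that also lies on chromosome 4, rose by 0.80 ± 0.12 in the egg mutant and 0.89 ± 0.12 in the double mutant, and the transducer gene Mad by 0.78 ± 0.15, 0.56 ± 0.15 and 0.77 ± 0.15. Under cyclic loess 6, 1 and 6 genes of this list rose. Of 15 integrin and adaptor genes 11, 11 and 12 rose and 0, 0 and 1 fell, with the focal adhesion kinase gene Fak at 0.95 ± 0.09, 0.74 ± 0.09 and 0.75 ± 0.09. The gene that fell was stck, an adaptor of integrin adhesions, in the double mutant (-0.18 ± 0.07). Under cyclic loess 7, 4 and 6 integrin and adaptor genes rose and 1, 2 and 1 fell.

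The other lists moved less evenly. Of 16 genes of small RNA silencing and translation 11, 7 and 7 rose and 1, 3 and 2 fell, with the decapping genes Edc3 at 0.99 ± 0.11 in the egg mutant and DCP2 at 0.85 ± 0.15 in the Su(var)3-9 mutant, and the deadenylase gene twin at -0.69 ± 0.10 there. The median of this list was 0.36, 0.09 and 0.21, and under cyclic loess 3, 2 and 2 rose and 4, 7 and 5 fell. Of 9 lipid transport and storage genes 5 rose in every mutant and 1, 1 and 0 fell. The adipokinetic hormone receptor gene AkhR rose by 1.26 ± 0.10, 0.91 ± 0.10 and 0.997 ± 0.10, and the lipase gene bmm fell by 0.77 ± 0.08 in the egg mutant. Under cyclic loess 2, 4 and 3 lipid genes rose and 2, 1 and 1 fell. Of 9 excision repair genes 4, 5 and 3 (44.4%, 55.6% and 33.3%) rose and 1, 0 and 0 fell, and PCNA, the replication clamp gene, was the one that fell (-0.64 ± 0.21). Under cyclic loess 1, 0 and 0 repair genes rose and 2, 2 and 1 fell.

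The other yellow family genes were divided in direction. Of 12 other family members measured, 0, 4 and 5 rose and 5, 2 and 3 fell. The gene yellow-g2 fell by 1.27 ± 0.12, 1.09 ± 0.12 and 1.21 ± 0.12, and yellow-e changed by 0.03 ± 0.09 in the egg mutant and rose by 1.03 ± 0.09 and 0.88 ± 0.09 in the others. Median changes of these 12 genes were -0.18, 0.01 and 0.06, beside the rise of yellow-h by 1.05, 0.80 and 1.07. These counts depended on the scaling, with 3, 10 and 8 rises and 3, 2 and 3 falls with median centring and 0, 3 and 2 rises and 8, 5 and 5 falls under cyclic loess.

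**Figure D5:**
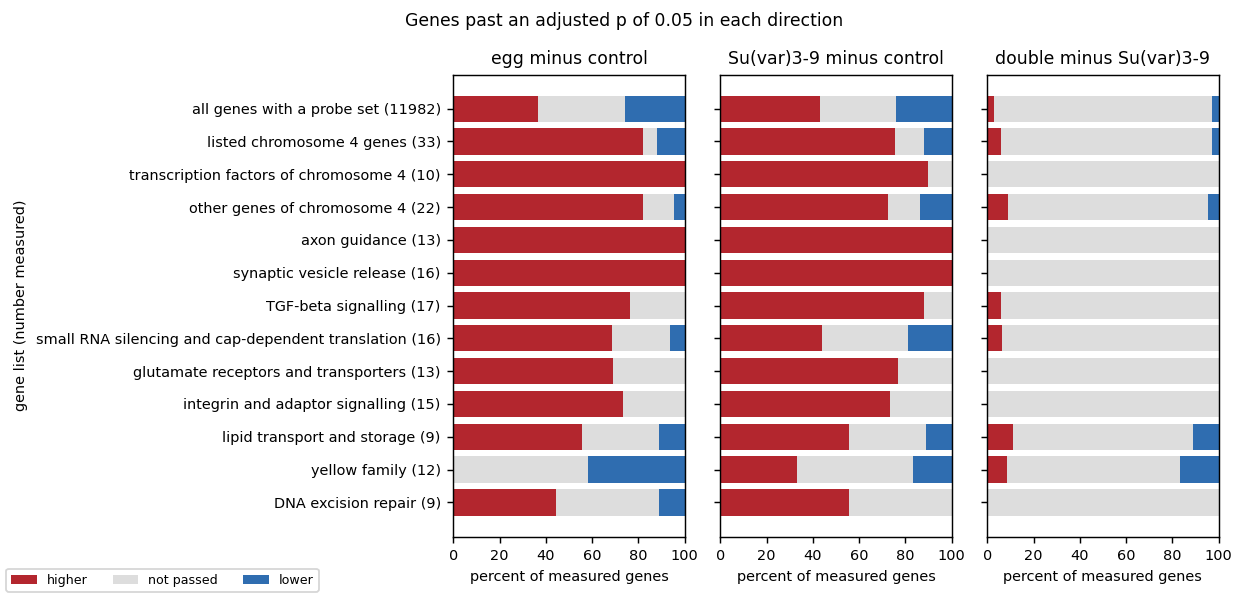
Bars give the percent of measured genes of each list that were higher (red), lower (blue) or did not pass an adjusted p of 0.05 (grey) in the egg mutant against the control, the Su(var)3-9 mutant against the control and the double against the Su(var)3-9 mutant. In the first 2 panels the chromosome 4, axon guidance and vesicle release lists are mostly red and the yellow family is not, and in the third nearly all bars are grey.

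Of the 33 genes, 6 had several probe sets, which mostly moved together. The second set of Cadps rose by 1.13 ± 0.13, 0.72 ± 0.13 and 0.90 ± 0.13, and that of CG33978 by 0.89 ± 0.14, 1.45 ± 0.14 and 1.27 ± 0.14, each more than the brighter set. The second set of CG1674 changed by -0.40 ± 0.16 in the egg mutant, which did not pass (limma adjusted p = 0.0528), and fell by 0.81 ± 0.16 and 0.55 ± 0.16 in the others. PlexB had 4 sets, of which 3 rose in each mutant. The interaction also depended on the set. It did not pass for the brightest sets of PlexB and CG33978. It passed for dimmer sets of PlexB (-0.48 and -0.92, the latter below the 40th percentile) and CG33978 (-1.06). The dimmest effect of PlexB (-0.21) did not pass, nor did the second set of Ank (-0.23), whose brightest set passed.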

How the data were processed

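Heads of 4 genotypes were measured on Affymetrix Drosophila arrays. The deposited signals are on a log2 scale, 1 per probe set. Per the submitters' processing notes RMA and limma were used, with no version given. RMA scales arrays to each other, so a change in total RNA per head does not show in these values. Of 13 arrays 12 held values. The second array of a technical pair of the control had an empty column, so control replicate 1 rests on its first array. After 183 control probe sets were left out, 18769 probe sets were tested, of which 13647 had 1 gene symbol, 402 several and 4720 none. Array medians were 5.71 to 6.14, and arrays of a group correlated at 0.992 to 0.998. The number of arrays limits the precision.

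Group means were fitted with lmFit and eBayes (limma 3.58.1, R 4.3.3) over all arrays, with 8 residual degrees of freedom. P-values are two-sided and adjusted by Benjamini-Hochberg over all probe sets within a comparison, with a threshold of 0.05. Tables were made with Python 3.11.15, pandas 2.3.3 and numpy 2.4.6. The procedure was tested on simulated data. The suffix of the probe set was _at for 16 listed genes, _a_at for 4 and _s_at for 13, and sets of the last kind can match more than 1 transcript.

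The listed genes, the pathway lists and the marker lists were chosen with earlier results of these data known. Values on every array are given for the 3 largest called changes in each direction of each comparison, and for 1 gene of each role group, that with the highest mean. From a pathway list the 2 largest called changes and the brightest gene could be named. Alternatives were other normalisations, filters, weights, a replicate block, a covariate and the omission of single arrays. Gene start positions were used to order the genes along chromosome 4, and no sequences were used here. The transcripts of egg and Su(var)3-9 were not checked here as a test of the genotypes.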

Additional observations from a re-analysis of the deposited data

Results flagged for a closer look

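For 23 of the listed genes the effect of egg235 differed by a test of the interaction between flies without and flies with Su(var)3-906 (limma, adjusted over all probe sets). A negative value means that egg minus control exceeded double minus Su(var)3-9. Among guidance genes the interaction was -0.40 for Eph, -0.45 for Ephrin and -0.48 for Crk. Among synaptic genes it was -0.83 for unc-13, -0.72 for Cadps, -0.68 for Syt7 and -0.65 for mGluR. The TGF-beta ligands myo and mav had -0.50 and -0.42, and the kinase genes Asator and Dyrk3 had -0.55 and -0.73. Genes of RNA, repair and protein turnover had -0.36 for gw, -0.36 for 4E-T, -0.45 for Pur-alpha and -0.30 for Rad23. Ank had -0.59, Zyx -0.46 and yellow-h -0.78. Of the genes with CG numbers, CG31997 had -0.81, CG32017 -0.88 and CG32850 -0.79, while CG1674 had 0.52 and CG32006 0.77.

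These differences rest on the control arrays, from which the egg mutant differed by -2.39 log2 units in the other-tissue score, and the part of this was not tested. Single arrays decided 5 of the calls. Those of Eph, gw, 4E-T, Rad23 and CG32006 were lost without any 1 of 5, 8, 3, 10 and 7 arrays (limma adjusted p = 0.0503 to 0.107). Groups of 3 arrays were not searched for outlying arrays.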

How the results depend on the processing

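Numbers of listed genes that rose moved with the scaling, the covariate and a fold minimum. Under cyclic loess they were 16, 16 and 14 in the egg, Su(var)3-9 and double mutant in place of 27, 25 and 28, and 13 genes passed for the interaction in place of 23. Centring on brighter probe sets gave 19, 18 and 18 rises in the egg, Su(var)3-9 and double mutant. Adding the other-tissue score to the fit gave 2, 0 and 0 rises, with 0 for the interaction, 0 between the double and egg mutants and 2 between the egg and Su(var)3-9 mutants. That score separates control from mutant arrays, so group and covariate overlap. A 1.5-fold minimum left 13, 11 and 13, with 11 for the interaction, 0 between double and egg and 2 between egg and Su(var)3-9. Between double and egg, 5 genes passed with a trended robust prior, 7 with array weights and 7 with median centring, in place of 3. Between egg and Su(var)3-9, 14 passed with the trended prior, 14 with array weights and 14 with a filter at the 40th percentile, in place of 9. Between double and Su(var)3-9 the count stayed at 2 to 4.

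Leaving out each array in turn gave 24 to 27, 22 to 26 and 26 to 28 rises in the egg, Su(var)3-9 and double mutant. It gave 2 to 6 genes between double and egg (6 without control replicate 2), 2 to 3 between double and Su(var)3-9, 6 to 11 between egg and Su(var)3-9 and 18 to 24 for the interaction.

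Of 835 alternative values of single genes 750 kept their call, 85 lost it and 0 changed sign. These counts do not describe all listed genes, since the genes were picked for the size of their changes. The values cover 35 gene results, the up to 3 largest called changes in each direction of each comparison. Outside them, signs against the control turned under at least 1 scaling for Rad23, Thd1, CG33521, 4E-T, eIF4G1, apolpp, CG31999, CG11077, CG32850 and Zyx in 1 or more mutants, with the values in the report. Replicate numbers did not pair the samples (r from -0.36 to 0.101 over 18 same-numbered pairs). With the replicate number as a block 25, 24 and 27 genes rose, and 2, 2, 7 and 22 passed for double against egg, double against Su(var)3-9, egg against Su(var)3-9 and the interaction. The second array of the control pair was not run, since its column is empty, and a fit of only the compared groups has no interaction. Each group has 3 arrays, which limits small changes.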
